A study of Mus musculus with 20 samples.

Results

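Loss of TRIM71 by deletion and loss of its wild-type form by a homozygous R595H change were set against each other in mouse embryonic stem cells, to find what the transcriptomes of these losses of function did not share. The quantity reported is a difference of differences: the deletion effect (Trim71-KO minus Trim71-cond) minus the R595H/R595H effect (R595H/R595H minus WT), per gene, in log2 units of the deposited table. It is called the difference below, and a positive difference means that a gene stood higher after deletion, relative to its own control, than in R595H/R595H clones relative to WT clones. Of the 20 libraries of the series 16 entered, and 9586 of the 13283 genes in the table were tested because their mean level was at least 3.32. Mertk lay just inside that limit (mean 3.3221) and Timm8a1 just outside it (mean 3.3212).

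The cells were male C57BL/6 stem cells kept in serum (FCS) with LIF and the 2i inhibitors, and their mRNA was sequenced in bulk from extracted total RNA. Trim71-cond cells carried floxed Trim71 (labelled Trimfl/fl) and were the controls of the deleted Trim71-KO cells, with 4 libraries of each, coded 1A, 2B, 3A and 3B. WT (C16, C7, C5) and R595H/R595H (C14, C20, C24) were 3 clones each, and the libraries that C16 and C14 had from 2 dates were averaged. The labels give no clone for the conditional libraries (the entry is "x") and do not say how or for how long the gene had been deleted, or that the libraries were separate cultures. P-values therefore measure the spread between these libraries, which may be technical. The conditional cells and the clones are separate sets of cells, and for the difference this cannot be told apart from genotype.

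TRIM71, also known as LIN41, is a ubiquitin ligase and RNA-binding protein of pluripotent and early embryonic cells that is repressed by let-7 microRNAs as cells differentiate. Its NHL repeats bind mRNAs, which are then silenced or degraded, and the R595H change lies in this NHL part and corresponds to a change found in human congenital hydrocephalus. Deletion removes part of the gene, whereas a change of a single residue leaves the rest of the coding sequence in place. The reference codon of that arginine is shown because it is the codon that the R595H allele changes. It lies within an open reading frame of 855 residues, at chr9:114513428-114513430 on the minus strand (GRCm38, GENCODE vM21, exon 4), and capitals mark it in the coding sequence around it.
Trim71 codon: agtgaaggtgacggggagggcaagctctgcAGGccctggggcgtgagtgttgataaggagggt

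The targeted gene was itself the gene with the largest difference. Trim71 was at 8.94, 8.93, 8.94 and 9.01 in Trim71-cond libraries 1A, 3A, 2B and 3B, the order used throughout, and at 7.44, 7.47, 7.43 and 7.53 in Trim71-KO. Among the clones it was at 9.53, 9.49 and 9.48 in WT C16, C7 and C5 and at 10.14, 10.00 and 10.18 in R595H/R595H C14, C20 and C24, also in that order throughout. The 4 groups did not overlap: the transcript fell by 1.48 ± 0.06 after deletion, and it stood 0.61 ± 0.06 higher in R595H/R595H than in WT. The difference was -2.09 ± 0.08 (limma adjusted p = 8.07e-16), and it stayed between -2.15 and -2.03 in every alternative analysis tried. R595H/+ clones, which took no part in the difference, averaged 9.58. The labels do not name the deleted exons, so the remaining Trim71-KO signal cannot be read as intact transcript.

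Ccr4, a chemokine receptor gene, showed the largest positive difference. It lies on the same strand as Trim71, at chr9:114490316-114504916, with 2216 bases between it and the end of Trim71. Its level was 3.16, 3.07, 3.13 and 2.87 in Trim71-cond and 4.79, 4.71, 5.16 and 4.97 in Trim71-KO, so that every deleted library stood above every control. In the clones it was 3.07, 3.12 and 2.96 in WT and 3.16, 2.81 and 3.34 in R595H/R595H, which overlapped. The difference was 1.79 ± 0.16 (adjusted p = 4.43e-08), made up of 1.85 ± 0.10 after deletion and 0.06 ± 0.12 in the clones. Of its group means, those of Trim71-cond (3.06), WT (3.05) and R595H/R595H (3.10) lay below the limit of 3.32 used for testing. Ccr4 was therefore tested only because of its level in Trim71-KO (mean 4.91). Its call was kept when no such limit was set. Another 14 genes of chromosome 9 between 113651744 and 115310421 were tested, and none was called: their differences ran from -0.20 to 0.27.

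Across the transcriptome limma called 203 of 9586 genes for the difference at an adjusted p under 0.05, which is 2.12% of those tested, and 1755 had an unadjusted p under 0.05. Higher were 105 (1.1%) and lower 98 (1.02%), with a median size of 0.50 on the log2 scale. Past 1.5-fold were 56 genes (21 higher, 35 lower), and Trim71, Peg10 and Ccr4 alone passed 2-fold. By comparison the same fit called 1770 genes (18.5%) for deletion, 871 higher (9.09%) and 899 lower (9.38%), and 753 (7.86%) for R595H/R595H, 405 higher (4.22%) and 348 lower (3.63%).

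These counts carry a limit that lies in the deposited table. Its 20 columns obey 5 exact linear relations, whose weights sum to 0 within each of the 5 genotypes. Of the 15 residual degrees of freedom of the 20 libraries taken singly, 10 therefore remain. The step that left them is not given in the sources used here, and it was not tested. The deviations of Trim71-cond 1A and Trim71-KO 1A from their group means mirrored each other, with r = -0.89 across genes. Treating libraries as free makes p-values too small, and with the relations entered as covariates 36 of the 203 genes stayed called (17 higher, 19 lower) and no other gene was called. Among them were Trim71, Ccr4, Pros1, Nfib, Klf5, Hook1, Tdgf1, Xrn1, Mt1, Maged1, Srm, Cd3g, Cd3d, Pard3, Sema5a and Lefty1. Where a gene is named below as called for the difference, its adjusted p with the relations is given if that call was then lost. For single effects the relations left 99 genes called in both systems, of which Trim71 alone had effects of opposite sign.

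In 168 of the 203 genes the 2 effects had opposite signs and in 35 the same sign, against 3714 genes (38.7%) with opposite signs among all 9586. A large difference favours opposite signs by construction, so these counts describe the called genes and show nothing further, and in most of the 168 at least 1 of the effects was not called. The deletion effect alone was called in 120 (64 with a positive difference, 56 negative), the R595H/R595H effect alone in 63 (33 and 30), both in 15 and neither in 5. Of the 15 called in both, 11 had opposite signs, Trim71 among them, and 4 had the same sign. In the 120 the median size of the effect was 0.367 after deletion and 0.159 in the clones, and in the 63 it was 0.114 and 0.423. With the replicate code as a block in the conditional libraries 87 of the 203 stayed called, and 21 stayed called in all of the alternative analyses in which they were tested.

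**Figure D1:**
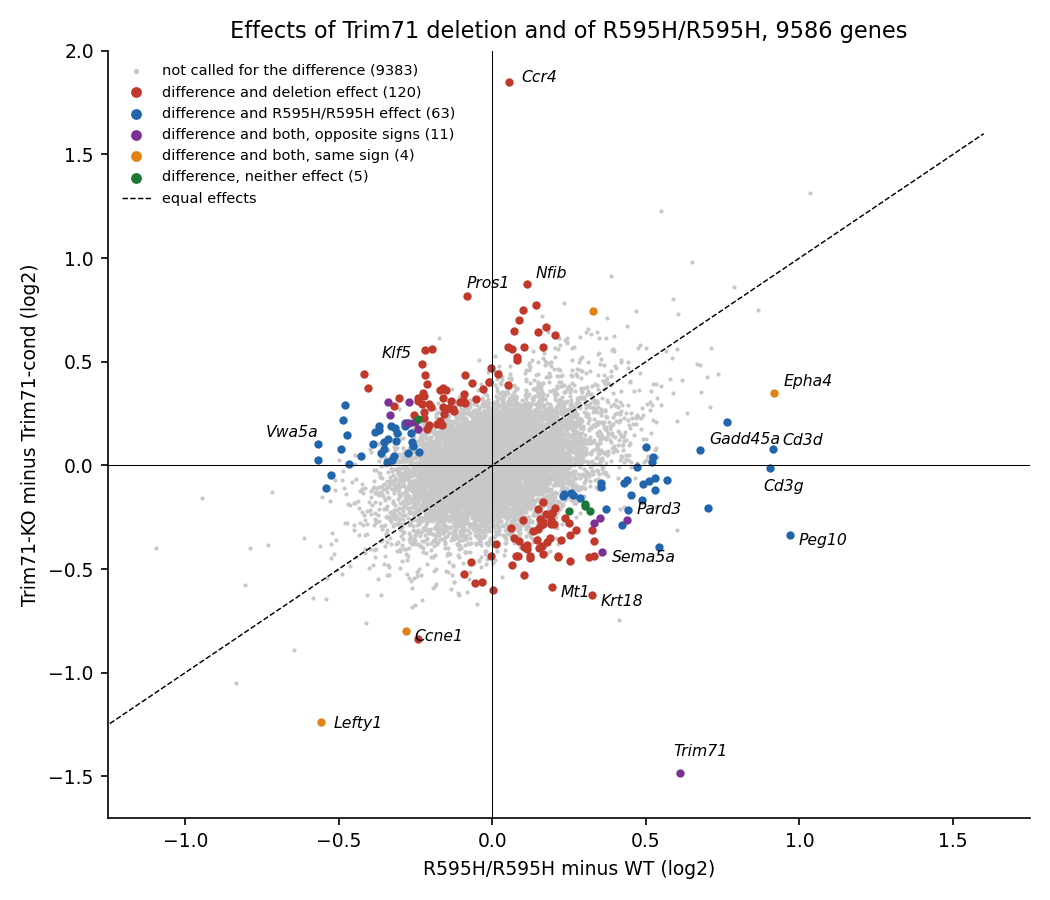
Effects in the 2 systems for the 9586 genes tested: the horizontal axis is R595H/R595H minus WT and the vertical axis Trim71-KO minus Trim71-cond, both in log2 units. Grey points were not called for the difference, colours give the 5 classes of the 203 called genes, and the dashed line marks equal effects. Called genes lie away from the dashed line, with Ccr4 at the top, Trim71 at the lower right and Peg10 at the right.

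The group called after deletion and not in the clones had its smallest p of the difference, after Ccr4, in Pros1. An effect that was not called can still differ from 0. Pros1 encodes the anticoagulant protein S and ligand of TAM receptors. Pros1 was at 5.83, 5.48, 5.69 and 5.77 in Trim71-cond and 6.43, 6.69, 6.63 and 6.29 in Trim71-KO, with no overlap. In the clones it was at 6.29, 6.47 and 6.31 in WT and 6.22, 6.40 and 6.20 in R595H/R595H, a range close to that of the deleted cells, so the controls of the 2 systems differed in it as well (5.69 ± 0.15 in Trim71-cond and 6.36 ± 0.10 in WT). The difference was 0.90 ± 0.14 (adjusted p = 0.0021).

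Nfib, a nuclear factor I transcription factor of lung and brain development, was at 6.32, 6.36, 6.19 and 6.62 before and 7.24, 7.14, 7.38 and 7.24 after deletion. WT clones had 6.52, 6.70 and 6.64 and R595H/R595H clones 6.79, 6.67 and 6.74, which overlapped. The gene rose by 0.87 ± 0.08 after deletion, against 0.11 ± 0.09 in the clones, giving a difference of 0.76 ± 0.12 (adjusted p = 0.00211). Every deleted library lay above every other value of Nfib.

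Klf5, a Kruppel-like factor of the naive stem cell network, had effects of opposite sign in the 2 systems, of which the deletion effect alone was called. It was at 7.59, 7.55, 7.62 and 7.65 in Trim71-cond and 8.07, 8.02, 8.29 and 7.98 in Trim71-KO, without overlap. WT clones had 7.85, 8.15 and 8.02 and R595H/R595H clones 7.83, 7.64 and 7.86, which overlapped in that C24 stood just above C16. The deletion effect was 0.49 ± 0.07, the R595H/R595H effect -0.23 ± 0.09 (adjusted p = 0.101) and the difference 0.72 ± 0.11 (adjusted p = 0.00211).

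Among further genes called after deletion and for a positive difference, Hook1, a microtubule-linked adaptor of vesicle transport, had a difference of 0.77 ± 0.13 and Rbm44, an RNA-binding protein of germ cells, one of 0.76 ± 0.14 (adjusted p = 0.00447 and 0.00618). Hook1 went from 7.68 ± 0.15 to 8.24 ± 0.14 after deletion and from 7.74 ± 0.18 in WT to 7.52 ± 0.16 in R595H/R595H (means). Cyp2b23, a cytochrome P450 gene named after its values were seen, was at 4.37, 4.31, 4.32 and 4.35 in Trim71-cond and 5.08, 5.14, 5.16 and 5.06 in Trim71-KO. The Cyp2b23 groups lay far apart after deletion and were at 4.08, 3.97 and 3.83 and 4.12, 4.03 and 4.14 in WT and R595H/R595H clones. Its difference was 0.63 ± 0.12 (adjusted p = 0.00618).

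On the negative side Mt1, a metallothionein that binds zinc and copper, was at 7.30, 7.36, 7.08 and 7.02 in Trim71-cond and 6.59, 6.78, 6.55 and 6.49 in Trim71-KO, again without overlap. WT clones had 7.38, 7.27 and 7.19 and R595H/R595H clones 7.46, 7.36 and 7.60, which overlapped. The Mt1 difference was -0.78 ± 0.13 (adjusted p = 0.00211), with -0.59 ± 0.08 after deletion and 0.19 ± 0.10 in the clones. Mt2, the neighbouring metallothionein on chromosome 8, had a difference of -0.57 ± 0.16, which missed the threshold (adjusted p = 0.0571, and 0.0464 with the replicate code as a block, where it passed, and 0.297 with the relations).

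Maged1, a MAGE-family adaptor, was at 7.75, 7.86, 7.93 and 7.94 and fell to 7.45, 7.31, 7.30 and 7.31 after deletion. Its clones overlapped, at 7.79, 7.63 and 7.80 in WT and 7.84, 7.89 and 7.80 in R595H/R595H, and the difference was -0.63 ± 0.10 (adjusted p = 0.0021). Several other negative differences of this group were seen in genes named after their values were seen. They include Srm, the spermidine synthase gene (-0.65 ± 0.11), Polr1a, the largest subunit of RNA polymerase I (-0.58 ± 0.12), Hvcn1, a proton channel (-0.66 ± 0.12), Magi3, a junction scaffold (-0.59 ± 0.12), and Bex3, a small adaptor of neurotrophin receptor signalling (-0.54 ± 0.11). For these 5 the limma adjusted p ran from 0.00211 for Srm to 0.012 for Polr1a. All 5 fell after deletion, by 0.31 ± 0.08 for Magi3 to 0.44 ± 0.08 for Hvcn1, and had positive R595H/R595H effects that were not called. Control means of the systems differed for Srm (6.99 in Trim71-cond, 6.55 in WT) and Hvcn1 (4.31 and 3.86). Their Trim71-KO means, 6.56 and 3.87, lay near those of WT. Control means were 6.34 and 6.12 for Magi3, 7.81 and 7.65 for Bex3, and 7.97 in both systems for Polr1a.

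The size of the deletion effect varied between codes within this group. The 64 genes with a positive difference had a median Trim71-KO minus Trim71-cond value of 0.268 within code 1A, 0.489 in 2B, 0.434 in 3A and 0.359 in 3B. For the 56 with a negative difference these medians were -0.248, -0.482, -0.429 and -0.366. The direction was thus alike in the 4 codes, and smallest in 1A, whose 2 libraries also mirrored each other as described above; since the same libraries chose the genes, these medians are a description.

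**Figure D2:**
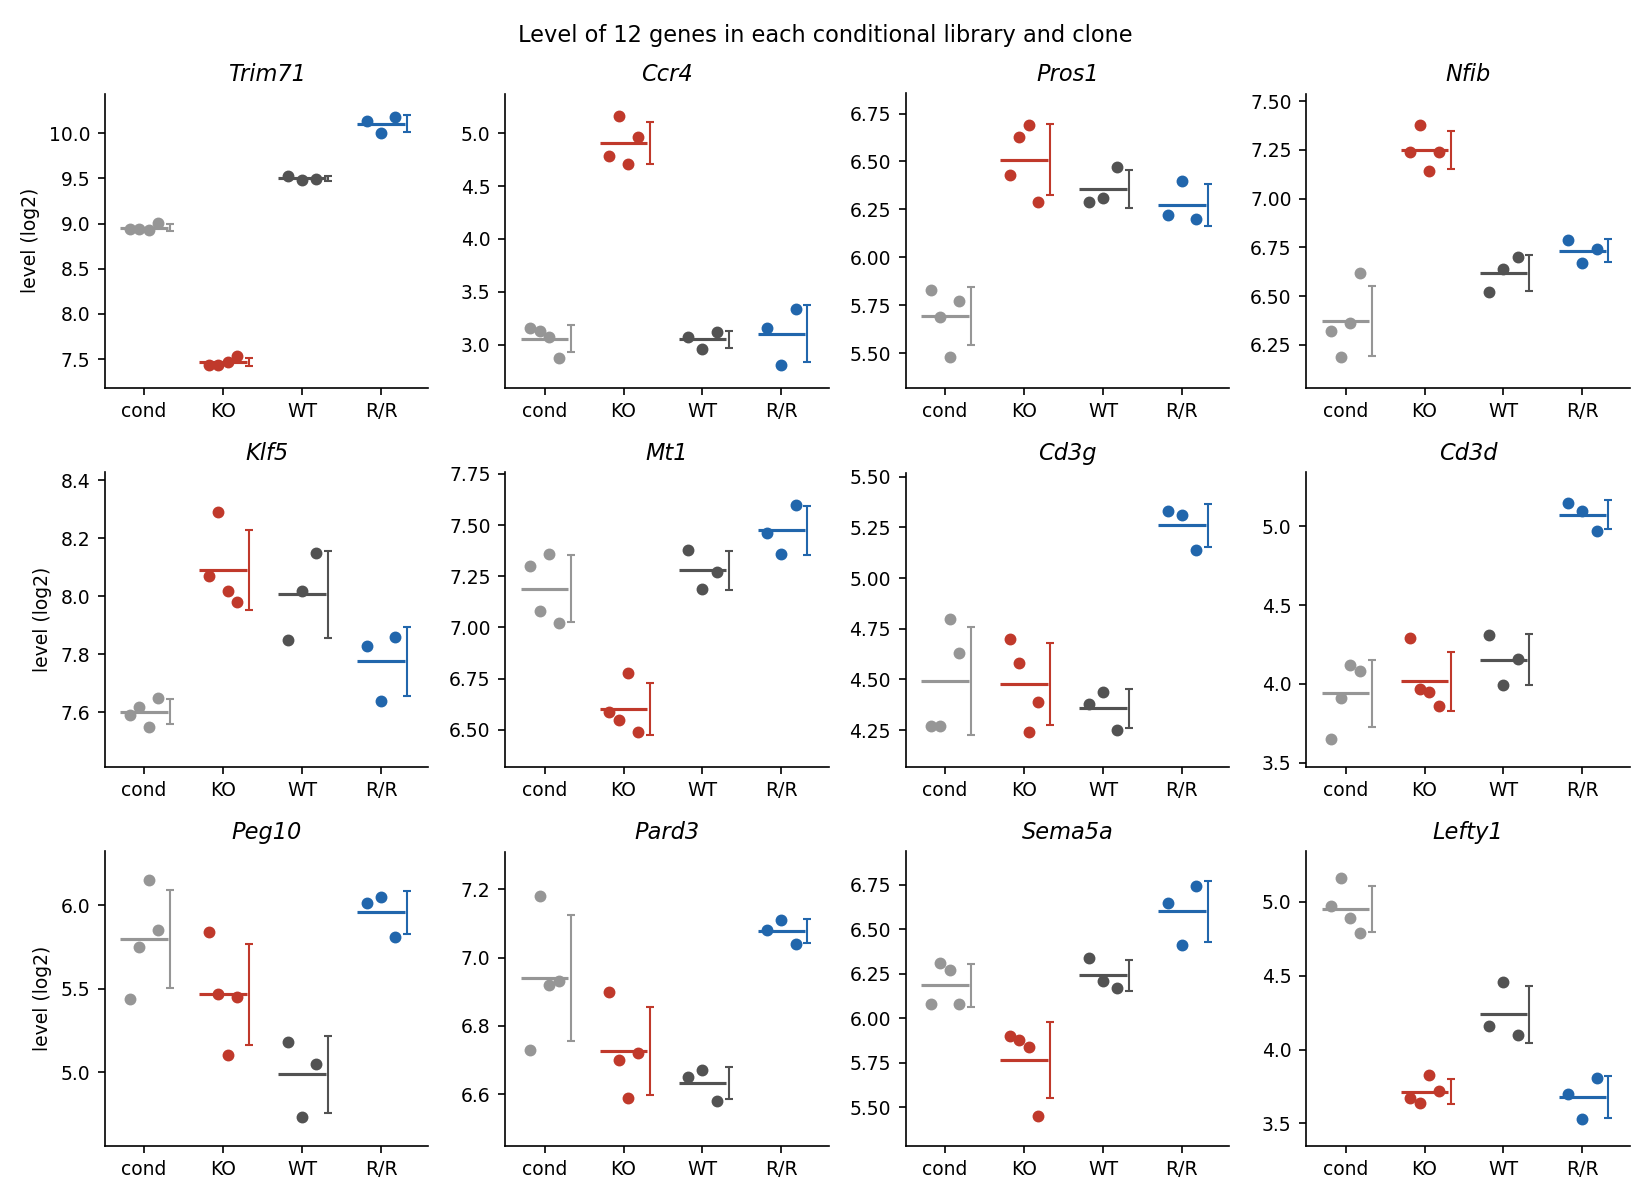
Level of 12 genes in each library of Trim71-cond and Trim71-KO and in each WT and R595H/R595H clone, in log2 units of the deposited table, with a separate vertical axis per gene. Points are libraries or clones, horizontal lines are group means and vertical bars are the SD (n = 4 libraries or 3 clones). Ccr4, Pros1, Nfib, Klf5 and Mt1 part after deletion, Cd3g, Cd3d, Peg10 and Pard3 part in the clones, and Trim71 and Sema5a part in opposite directions.

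The group called in R595H/R595H clones and not after deletion contained a pair of neighbouring genes, Cd3g and Cd3d. They encode subunits of the T-cell receptor complex and stand head to head on chromosome 9, with starts 1355 bases apart. Cd3g spans chr9:44969572-44980431 on the minus strand and Cd3d chr9:44981786-44987339 on the plus strand. Because they moved together, their promoters are shown from RefSeq (GRCm38.p6), 250 bases before to 50 bases after each start, Cd3d at chr9:44981536-44981835 (plus strand) and Cd3g at chr9:44980382-44980681 (minus strand). Capitals mark a GC box, searched as GGGCGG on both strands beside CCAAT and TATAAA.
Cd3d: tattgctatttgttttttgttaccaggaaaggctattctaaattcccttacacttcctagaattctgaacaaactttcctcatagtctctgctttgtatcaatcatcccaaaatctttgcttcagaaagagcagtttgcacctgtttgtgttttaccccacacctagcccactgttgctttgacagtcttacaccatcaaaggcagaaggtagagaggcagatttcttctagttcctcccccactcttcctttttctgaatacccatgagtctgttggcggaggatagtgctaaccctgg
Cd3g: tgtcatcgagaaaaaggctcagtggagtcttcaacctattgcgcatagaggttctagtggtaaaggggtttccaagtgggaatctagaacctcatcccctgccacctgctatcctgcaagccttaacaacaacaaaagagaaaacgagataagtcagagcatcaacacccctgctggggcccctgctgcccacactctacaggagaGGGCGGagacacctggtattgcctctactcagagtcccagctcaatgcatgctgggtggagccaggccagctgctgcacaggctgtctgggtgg
One match was found, a GC box in the Cd3g window, and none of the 3 motifs in that of Cd3d. Of 32851 promoters of this length 35.7% hold the GC box, 37.4% CCAAT and 13.6% TATAAA.

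Cd3g was at 4.38, 4.25 and 4.44 in the WT clones and 5.33, 5.31 and 5.14 in the R595H/R595H clones. In the conditional system it was at 4.27, 4.80, 4.27 and 4.63 in Trim71-cond and 4.70, 4.24, 4.58 and 4.39 in Trim71-KO, which overlapped throughout. Each R595H/R595H clone lay above every other value, and the difference was -0.92 ± 0.17 (adjusted p = 0.00618). Cd3d was at 4.31, 4.16 and 3.99 in WT and 5.15, 5.10 and 4.97 in R595H/R595H, against 3.65, 4.12, 3.91 and 4.08 in Trim71-cond and 4.29, 3.95, 3.97 and 3.86 in Trim71-KO. Here too the 3 R595H/R595H clones stood alone, with a difference of -0.84 ± 0.16 (adjusted p = 0.00734). R595H/+ clones, outside the test, averaged 4.81 for Cd3g and 4.71 for Cd3d, between the 2 other genotypes of the clones.

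Peg10, a paternally expressed retrotransposon-derived gene needed in the placenta, had the largest negative difference after Trim71. It was at 5.18, 5.05 and 4.73 in WT and 6.01, 6.05 and 5.81 in R595H/R595H, without overlap. Trim71-cond libraries had 5.44, 6.15, 5.75 and 5.85 and Trim71-KO libraries 5.84, 5.10, 5.47 and 5.45, a wide spread in which the groups overlapped and code 1A went against the others. The difference was -1.30 ± 0.22 (adjusted p = 0.00714, and 0.0603 with the linear relations). R595H/+ clones averaged 4.97, near WT.

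Pard3, a polarity scaffold of tight junctions, was at 6.65, 6.58 and 6.67 in WT and 7.08, 7.11 and 7.04 in R595H/R595H. Trim71-cond had 6.73, 6.92, 7.18 and 6.93 and Trim71-KO 6.90, 6.59, 6.70 and 6.72, with overlap. The R595H/R595H effect was 0.44 ± 0.09, the deletion effect -0.21 ± 0.08 (adjusted p = 0.0669) and the difference -0.65 ± 0.13 (adjusted p = 0.00778). The R595H/R595H clones stood higher than WT by a margin wider than the spread of either group.

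In the other direction Vwa5a, a von Willebrand domain gene, was at 6.69, 6.48 and 6.87 in WT and 6.11, 6.15 and 6.08 in R595H/R595H, and did not part after deletion (6.54 ± 0.14 in Trim71-cond, 6.64 ± 0.11 in Trim71-KO, means). Its difference was 0.67 ± 0.13 (adjusted p = 0.00841), and the call was kept in 30 of 31 alternative analyses (highest adjusted p 0.0638). Lrif1, a nuclear receptor-interacting factor, fell by 0.49 ± 0.10 in R595H/R595H, had a deletion effect of 0.22 ± 0.09, and had a difference of 0.71 ± 0.14 (adjusted p = 0.00841). The Lrif1 call was lost after adjustment for GC content, alone or with the replicate block (adjusted p up to 0.101). Gadd45a, a stress-induced growth arrest gene, was at 3.91, 3.94 and 4.06 in WT and 4.73, 4.38 and 4.83 in R595H/R595H, while Trim71-cond and Trim71-KO averaged 3.91 ± 0.09 and 3.98 ± 0.08. For Gadd45a the difference of -0.60 ± 0.13 (adjusted p = 0.0201) was lost without C14 (0.0655), C7 (0.062) or C24 (0.052).

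Besides Trim71, 10 genes were called in both systems with opposite signs, and all 10 lost at least 1 of their single calls with the linear relations. They included Sema5a, a semaphorin of axon guidance, at 6.08, 6.27, 6.31 and 6.08 in Trim71-cond and 5.90, 5.84, 5.88 and 5.45 in Trim71-KO. The clones went the other way, from 6.34, 6.17 and 6.21 in WT to 6.65, 6.41 and 6.74 in R595H/R595H. The Sema5a groups did not overlap in either system, and the difference was -0.78 ± 0.15 (adjusted p = 0.00734). With the relations the R595H/R595H effect of Sema5a had an adjusted p of 0.0607. Slc4a2, an anion exchanger, had effects of -0.26 ± 0.09 after deletion and 0.44 ± 0.10 in the clones, with a difference of -0.70 ± 0.14 (adjusted p = 0.00841). The deletion effect of Slc4a2 had an adjusted p of 0.117 with the relations. Its call for the difference was kept in 29 of 30 alternative analyses (highest adjusted p 0.0557).

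Fam208b, a chromatin protein also called TASOR2, rose by 0.31 ± 0.07 after deletion and fell by 0.34 ± 0.08 in R595H/R595H (difference 0.65 ± 0.11, adjusted p = 0.00359), the deletion effect with an adjusted p of 0.0545 under the relations. Xrn1, the exonuclease that degrades mRNA from its decapped end, was at 8.48, 8.34, 8.32 and 8.33 in Trim71-cond and 8.49, 8.50, 8.73 and 8.60 in Trim71-KO. WT clones had 8.75, 8.82 and 8.67 and R595H/R595H clones 8.50, 8.51 and 8.47, so the clones separated and the conditional libraries also did so, by a small margin in code 1A. The Xrn1 difference was 0.46 ± 0.10 (adjusted p = 0.012), and with the relations its deletion and R595H/R595H effects had adjusted p of 0.0907 and 0.0553. Alternative analyses kept the Xrn1 call for the difference in 30 of 31 cases (highest adjusted p 0.0645). Zfp992, a zinc finger gene of chromosome 4 with near-identical copies beside it, had a difference of 0.58 ± 0.11 (adjusted p = 0.00618), which is uncertain where reads are split between copies, and its R595H/R595H effect had an adjusted p of 0.115 with the relations.

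The 4 genes called in both systems with the same sign differed in size. Lefty1, an inhibitor of Nodal signalling, was at 4.97, 4.89, 5.16 and 4.79 in Trim71-cond and 3.67, 3.83, 3.64 and 3.72 in Trim71-KO, and at 4.16, 4.10 and 4.46 in WT and 3.70, 3.53 and 3.81 in R595H/R595H. It fell in both, from controls of unequal level to end points that overlapped, with effects of -1.24 ± 0.09 after deletion and -0.56 ± 0.11 in the clones. The difference was -0.68 ± 0.14 (adjusted p = 0.0124, and 0.0612 without C7). Ccne1, cyclin E1, fell by 0.80 ± 0.08 and 0.28 ± 0.09 (difference -0.52 ± 0.12, adjusted p = 0.0211). The Ccne1 call was lost with the linear relations (0.107, and 0.117 for its R595H/R595H effect) and without Trim71-cond 2B (0.0516), C14 (0.0592) or C7 (0.0721).

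Epha4, an ephrin receptor, rose more in R595H/R595H (0.92 ± 0.10) than after deletion (0.35 ± 0.09), and Mob1b, a Hippo pathway adaptor, rose more after deletion (0.75 ± 0.07) than in the clones (0.33 ± 0.09). Their differences were -0.57 ± 0.13 and 0.42 ± 0.11, with adjusted p of 0.0263 and 0.0488. Both calls were lost in some alternatives: with the replicate block the adjusted p was 0.0519 and 0.0625, and with the linear relations 0.0882 and 0.166. Leaving out 1 library or clone in turn kept Epha4 in 8 of 14 cases and Mob1b in 1, with adjusted p up to 0.065 (without C5) and 0.131 (without C7). In the class with neither single effect called, Cdk5, a kinase of neurons, had a difference of -0.54 ± 0.14 (adjusted p = 0.0446), lost with the block (0.075) and with the relations (0.134) and kept in 4 of 14 leave-outs (up to 0.117 without C14).

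**Figure D3:**
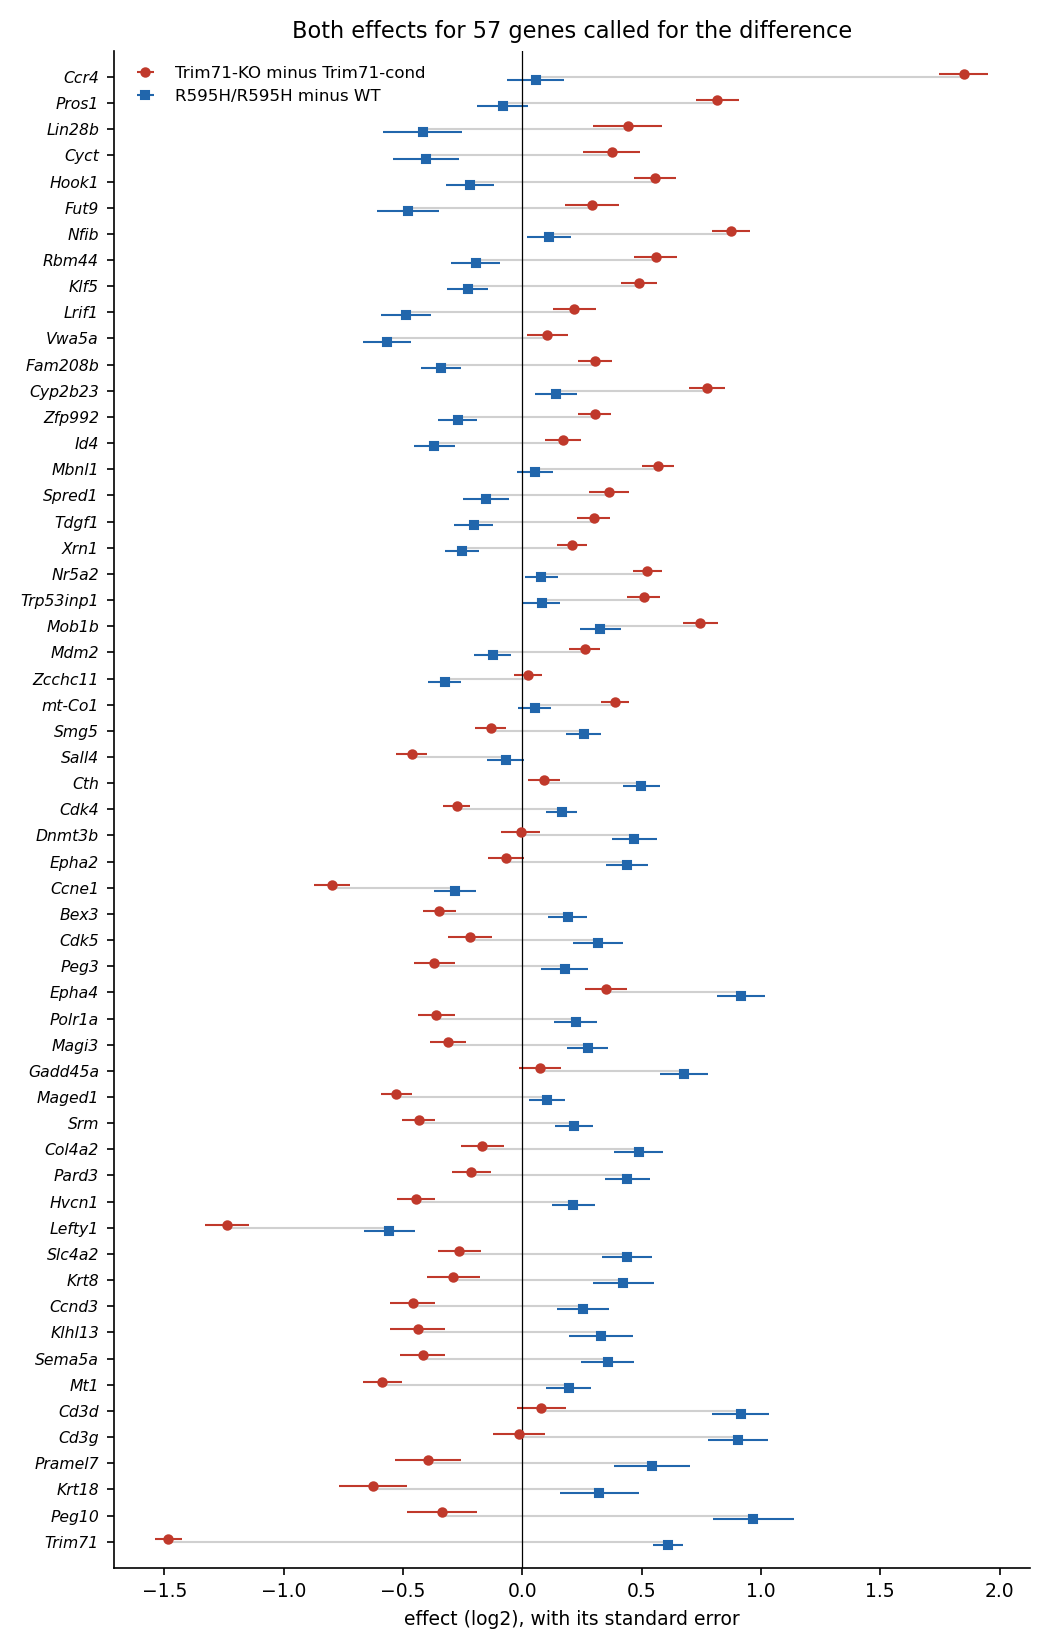
Both effects of the 57 named genes called for the difference, ordered by the difference from the most positive at the top (Ccr4) to the most negative at the bottom (Trim71). Circles are Trim71-KO minus Trim71-cond and squares R595H/R595H minus WT, in log2 units, and bars are the standard error from limma. For Lefty1, Ccne1, Epha4 and Mob1b, called in both systems with the same sign, both symbols lie on the same side of 0.

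Gene lists described where the difference did and did not fall, each set beside the 1.1% of all genes called higher, the 1.02% called lower and a median difference over all genes of -0.000326. Of 31 naive pluripotency genes tested 3 were called higher and 1 lower, with a list median of 0.0624. Higher were Klf5, Nr5a2, a nuclear receptor that sustains Pou5f1 (0.45 ± 0.09, adjusted p = 0.0124, 0.0845 with the relations), and Tdgf1, the Nodal co-receptor (0.50 ± 0.11, adjusted p = 0.0137). Lower was Sall4, a zinc finger factor (-0.39 ± 0.10, adjusted p = 0.0403), whose call was lost with the block (0.076) and the relations (0.235) and kept in 4 of 14 leave-outs (up to 0.134 without C7). Tdgf1 was at 11.53, 11.33, 11.27 and 11.14 in Trim71-cond and 11.47, 11.78, 11.65 and 11.56 in Trim71-KO, so libraries of these groups overlapped. In the clones it was at 11.55, 11.43 and 11.57 in WT and 11.30, 11.23 and 11.40 in R595H/R595H, which did not overlap. The Tdgf1 call was kept in 30 of 31 alternative analyses (highest adjusted p 0.0559).

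None of 9 neural progenitor genes, 9 neuronal genes and 14 Notch pathway genes was called for the difference, with list medians of 0.0792, -0.144 and 0.056. After deletion 3 neural progenitor genes rose and 1 fell, 1 neuronal gene rose and 2 fell, and 4 Notch genes rose and 0 fell, where 9.09% of all genes rose and 9.38% fell. In the clones 1 neural progenitor gene rose and 1 fell, 2 neuronal genes rose and 1 fell, and 1 Notch gene rose and 1 fell, where 4.22% of all genes rose and 3.63% fell. Of 8 genes listed as reported TRIM71 mRNA targets 1 was called: Mbnl1, a splicing regulator, at 6.89, 7.04, 7.01 and 6.90 in Trim71-cond and 7.58, 7.51, 7.53 and 7.49 in Trim71-KO against 6.97, 7.01 and 6.96 in WT and 7.11, 6.91 and 7.07 in R595H/R595H. Mbnl1 parted after deletion without overlap and not in the clones, with a difference of 0.52 ± 0.10 (adjusted p = 0.00841, 0.0976 with the relations). Cdkn1a, E2f7 and Rbl1, also reported targets, had differences of -0.17 ± 0.15, 0.25 ± 0.13 and 0.19 ± 0.12, with adjusted p of 0.56, 0.311 and 0.397.

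In the list of 23 let-7 targets and Lin28 genes, Lin28b was higher and Trim71 itself lower. Lin28b, which blocks let-7 maturation, had a difference of 0.86 ± 0.22 (adjusted p = 0.0493), which was lost with the block (0.063) and with the relations (0.304) and kept in 4 of 14 leave-outs (up to 0.13 without C14). Among 39 genes of the microRNA pathway, deadenylation and decay, Xrn1 and Zcchc11, a terminal uridylyl transferase (0.35 ± 0.09, adjusted p = 0.0411), were higher and Smg5, a nonsense-mediated decay factor (-0.39 ± 0.10, adjusted p = 0.0344), lower. The calls of Zcchc11 and Smg5 were lost with the block (0.0867 and 0.076) and with the relations (0.192 and 0.239), and leave-outs kept them in 4 and 6 of 14 cases, up to 0.117 and 0.104, both without C7.

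Among lists with at least 5 genes tested, endoderm genes had the lowest median, -0.422 over 8, with a deletion median of -0.173 and an R595H/R595H median of 0.334. Krt8 and Krt18, keratins of simple epithelia encoded on chromosome 15, and Col4a2, a basement membrane collagen, were called lower and none higher. Krt8 and Krt18 also belong to the trophectoderm list, of whose 5 tested genes they were the 2 called, and whose median was 0.181. Krt18 was at 5.04, 5.84, 5.59 and 5.44 in Trim71-cond and 5.29, 4.65, 4.65 and 4.82 in Trim71-KO, with 1A against the other codes, and at 5.00, 4.78 and 5.02 in WT and 5.27, 5.25 and 5.26 in R595H/R595H. The differences were -0.95 ± 0.22 for Krt18, -0.71 ± 0.17 for Krt8 and -0.65 ± 0.14 for Col4a2, with adjusted p of 0.0284, 0.0267 and 0.0135. With the block these were 0.0549, 0.0513 and 0.032, and with the relations 0.0439, 0.0845 and 0.0726. Leave-outs kept Krt18 in 8, Krt8 in 7 and Col4a2 in 12 of 14 cases, with adjusted p up to 0.0915, 0.0721 and 0.0612, each without C7, and the Col4a2 call was also lost without C14 (0.0541). Of 6 markers fixed for primitive endoderm 5 are in the table, with gene means from 0.0382 to 2.28. Their mean level was 1.13 to 1.18 in Trim71-cond, 1.12 to 1.14 in Trim71-KO, 1.11 to 1.21 in WT and 1.14 to 1.3 in R595H/R595H, and Gata6 was near 0 throughout (-0.018 to 0.143). In bulk RNA fewer cells of a type and less RNA per cell cannot be told apart.

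Cell cycle genes showed negative calls in the G1 list, 3 of 18 genes, with a list median of -0.0586. They were Ccne1, Ccnd3, cyclin D3 (-0.71 ± 0.14, adjusted p = 0.0107), and Cdk4, the kinase partner of D cyclins (-0.44 ± 0.09, adjusted p = 0.00841). Cdk4 was at 8.45, 8.52, 8.44 and 8.38 in Trim71-cond and 8.20, 8.14, 8.13 and 8.21 in Trim71-KO, without overlap, and at 8.45, 8.33 and 8.39 in WT and 8.50, 8.61 and 8.55 in R595H/R595H. The clone C20 was the highest value of Cdk4, and WT and R595H/R595H did not overlap. With the relations the adjusted p of Ccnd3 was 0.0604 and that of Cdk4 0.116. Of 47 S phase genes 22 were called lower after deletion (9.38% of all genes) and 3 in the clones (3.63% of all genes). Called higher were 1 after deletion (9.09% of all genes) and 0 in the clones (4.22% of all genes). For the difference 1 was called, Ccne1. The other members with the smallest p, Uhrf1, Pola2 and Lig1, had differences of -0.36 ± 0.10, -0.42 ± 0.12 and -0.36 ± 0.11 with adjusted p of 0.0571, 0.0658 and 0.0754. None of 41 G2/M genes was called for the difference.

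Of 33 p53 targets 13 rose after deletion (9.09% of all genes) and 4 fell (9.38% of all genes). In the clones 8 rose (4.22% of all genes) and 0 fell (3.63% of all genes), and 3 were called for the difference. Mdm2, the ligase that degrades p53 (0.39 ± 0.10), and Trp53inp1 (0.43 ± 0.11) were higher and Epha2, an ephrin receptor (-0.51 ± 0.12), lower, with adjusted p of 0.0449, 0.0307 and 0.0234. With the block these were 0.075, 0.0731 and 0.0467, with the relations 0.212, 0.0904 and 0.157, and leave-outs kept 4, 8 and 11 of 14, with adjusted p up to 0.0921 (Mdm2, without Trim71-cond 3A), 0.0868 and 0.0893 (both without C7). The list median was -0.0139.

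Among 26 Nodal, BMP and TGF-beta genes, Tdgf1 and Id4 were higher and Lefty1 lower. Id4, an inhibitor of DNA-binding factors, was at 4.51, 4.37 and 4.61 in WT and 4.13, 4.04 and 4.21 in R595H/R595H against 4.08 ± 0.05 and 4.25 ± 0.02 (means) in Trim71-cond and Trim71-KO. The Id4 difference was 0.54 ± 0.12 (adjusted p = 0.0151, 0.0741 with the relations, 0.0541 without C14). Of 26 imprinted genes Peg10 and Peg3 were called lower; Peg3, a zinc finger gene, had a difference of -0.55 ± 0.13 (adjusted p = 0.0288, 0.322 with the relations), kept in 7 of 14 leave-outs (up to 0.0893 without C7). In the amino acid stress list Gadd45a and Cth, which makes cysteine, were called lower among 34. For Cth the difference of -0.41 ± 0.10 (adjusted p = 0.0378) was lost with the block (0.076) and the relations (0.166), and 5 of 14 leave-outs kept it (up to 0.0813 without C16).

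Of 23 genes that write, read or erase DNA methylation, Dnmt3b, a de novo methyltransferase, and Gadd45a were called lower. Dnmt3b had a difference of -0.48 ± 0.13 (adjusted p = 0.047), lost with the block (0.0741) and the relations (0.155) and kept in 4 of 14 leave-outs (up to 0.152 without C7). Mitochondrially encoded transcripts had the highest median among lists with at least 5 genes tested, 0.224 over 7 genes, with 1 called higher. That gene, mt-Co1, a subunit of cytochrome oxidase, had a difference of 0.34 ± 0.09 (adjusted p = 0.049), which was lost with the block (0.0523) and the relations (0.172), was kept in 2 of 14 leave-outs (up to 0.149 without C7), and turned to -0.53 with quantile normalization. After adjustment for GC content the median of the 7 was 0.0298. Lists with fewer genes stood higher, the Y-linked genes at 0.488 (4 tested) and the two-cell-like state at 0.234 (2 tested), with no gene called. No call for the difference was made among 72 nuclear oxidative phosphorylation genes, 76 mitochondrial ribosomal proteins, 39 Polycomb and Trithorax genes or 27 interferon pathway genes, and 1 among 79 cytosolic ribosomal proteins.

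**Figure D4:**
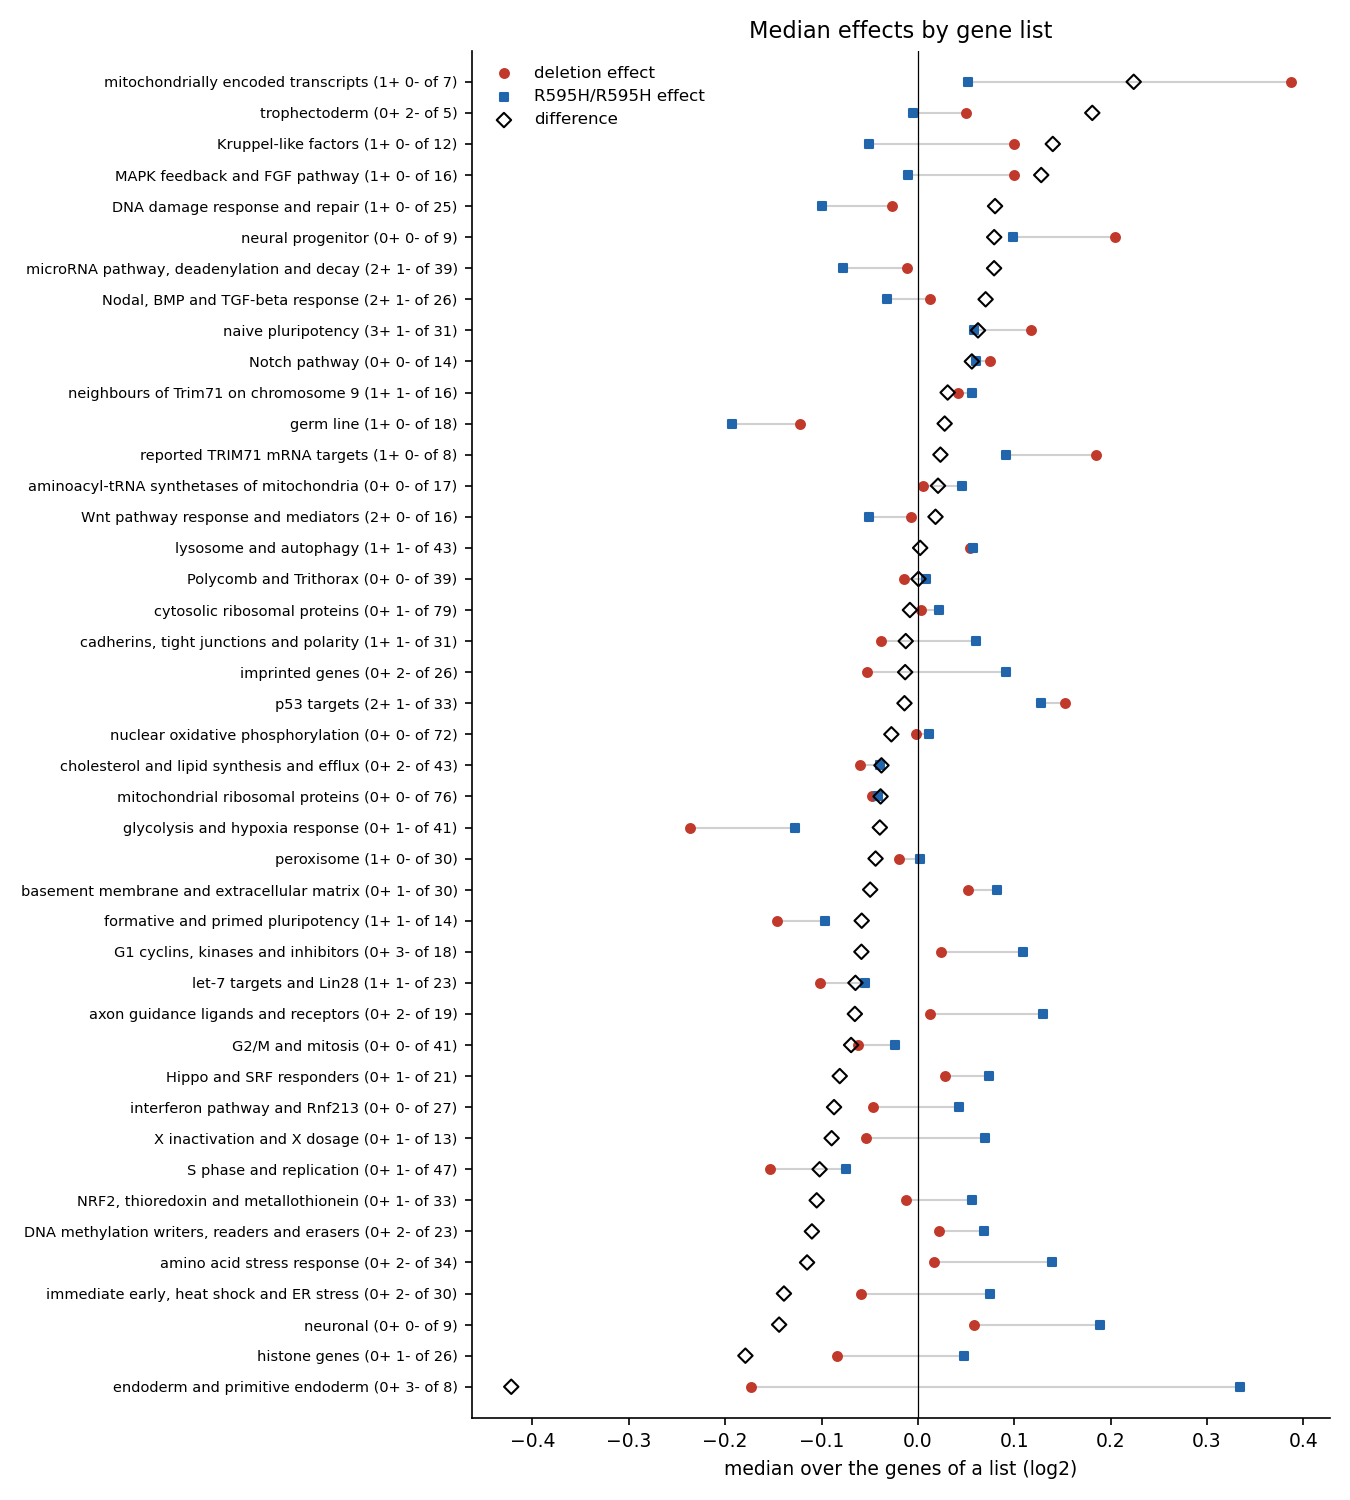
Median over the tested genes of each of 43 gene lists: circles are the deletion effect, squares the R595H/R595H effect and diamonds the difference, in log2 units; lists with under 5 genes tested are left out. Brackets give the genes called higher (+) and lower (-) for the difference and the number tested. The endoderm list stands lowest for the difference (-0.422) and the mitochondrially encoded transcripts highest (0.224).

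The losses also had common ground. Both effects were called in 281 genes, in 270 of them with the same sign. The 270 are 15.25% of the deletion calls and 35.86% of the R595H/R595H calls. Among all genes tested, 7.86% were called for R595H/R595H and 18.5% for deletion, in either direction. With the relations 99 genes were called in both systems, 98 of them with the same sign. Across all genes the effects had r = 0.364, a description over genes that share libraries. Ankrd44, an ankyrin repeat gene, fell by 0.50 ± 0.08 after deletion and by 0.51 ± 0.09 in the clones, and Nudt19, a hydrolase of peroxisomes, by 0.40 ± 0.08 and 0.40 ± 0.10. For Sf3b1, a splicing factor, the effects were -0.19 ± 0.05 and -0.19 ± 0.06, and with the relations neither was called (adjusted p = 0.067 and 0.103). The 95% interval of the difference lay within 1.5-fold for 259 of the 270 genes with the same sign. These genes were chosen by their calls in both systems, and the share over all genes tested is not given here. The count is therefore a description and does not show agreement.

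Several properties of the libraries moved with the difference, and their part in it was not tested. On chromosome 3, 16 of 19 called genes were lower among 457 tested, the median R595H/R595H effect was 0.11 and the median difference -0.0973. Clone C24 stood 0.117 and C14 0.0565 above the median clone there, and WT C16 and C5 stood lower (-0.0663 and -0.0498). Without C24, 8 genes of chromosome 3 were called, and 6 after each library was centred per chromosome. On chromosome 8, C20 stood 0.135 higher, and on chromosome 11, where 13 of 14 called genes were higher, WT C7 stood 0.0701 higher. Over all chromosomes centring kept 165 of the 203 calls.

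**Figure D5:**
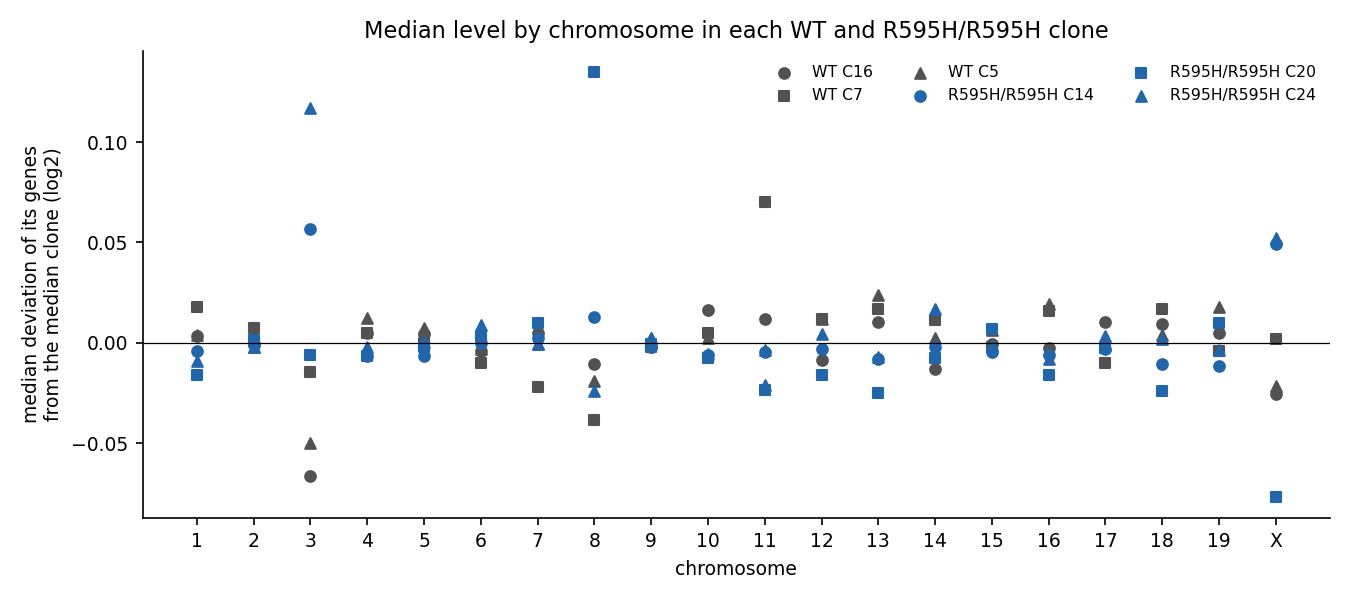
Median deviation of the genes of each chromosome from the median clone, in log2 units, for the WT (grey) and R595H/R595H (blue) clones. C24 on chromosome 3 (0.117) and C20 on chromosome 8 (0.135) stand highest, and C20 on X (-0.0767) lowest.

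Transcript GC content moved with the difference as well, with Spearman's rho of -0.379 over 9520 genes (-0.206 for the deletion effect and 0.222 for the R595H/R595H effect). The median GC content was 41.9% in genes called higher, 52.4% in those called lower and 48.9% in all tested. In the fifth of genes lowest in GC, 65 were called higher and 9 lower, and in the fifth highest in GC 2 and 28. WT C7 had the strongest relation of a single clone (rho = -0.409). Adjustment of each library for GC kept 118 of the 203 calls, among them those of Trim71, Ccr4, Pros1, Nfib, Klf5, Mt1, Maged1, Cd3g, Cd3d, Pard3 and Sema5a.

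Of the stem cell markers 7 of 7 were in the table, with gene means of 7.22 to 11.1, and the 2 of 8 feeder markers in the table had means of 1.92 and 2.49. The mean of Y-linked genes was 6.66 to 7.19 in conditional libraries and 7.1 in WT C5, and 4.65 in C16, 4.61 in C7 and 4.15 to 4.99 in R595H/R595H clones, although the labels give all cells as male. With this mean as a covariate 148 of the 203 calls were kept. Lars2 ran from 12.44 (C20) to 17.96 (C24). The R595H/+ clones, compared with WT, gave 0 called genes with limma at an adjusted p under 0.05 and 794 at an unadjusted p under 0.05. The depth of the libraries is unknown, since the table holds no counts.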

How the data were processed

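Bulk mRNA of 16 of the 20 libraries was compared: 4 Trim71-cond, 4 Trim71-KO, and 4 libraries each of WT and R595H/R595H, from 3 clones per genotype. The deposited table holds log2 values for 13283 symbols, from -0.65 to 18, with 1.58% below 0, scaled by the authors before deposit. The submitters' processing notes name CASAVA 1.8, STAR and DESeq2. The build, the counting and the transformation used by the submitters are not recorded in those notes. Base 2 was inferred from the transformations of DESeq2, which the authors used, and shrinkage of low values, if present, would understate their fold changes. No counts can be recovered, so depth and its precision are unknown.

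Dates of clone libraries follow their titles; the day tags of libraries titled 5/2 differ from that date and from each other, so the date is uncertain. Libraries of 1 clone were averaged, except in the alternative fits of all 16 or all 20 libraries. The resulting 14 values (4, 4, 3 and 3) were fitted together with limma 3.58.1 in R 4.3.3 (lmFit, contrasts, eBayes with trend and robust) over genes with a mean of at least 3.32. A gene was called where its p, adjusted after Benjamini-Hochberg over all 9586 genes, was under 0.05. Effects are given ± SE and means ± SD. The fit was tested first on simulated data with independent noise. Those data lacked the linear relations of the deposited columns, so the test cannot give the rate of false calls here. The plan named log2(value + 1) for linear values, which was not needed.

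Genes named are Trim71, the 10 largest positive and 10 largest negative called differences among genes with a group mean of at least 5, the 5 smallest p per class of called genes, up to 4 members per list by p of the difference, and 5 shared reference genes. Predicted genes were passed over, part of those chosen are named, and exceptions are stated. The comparison, its members and the 47 gene lists were chosen with earlier results of these data known. Positions are from GENCODE vM21 (GRCm38), which lists 13156 of the symbols a single time, 24 repeatedly and 103 under no entry.

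Same-coded Trim71-cond and Trim71-KO libraries share a day in the labels, and the code was used to pair them. Codes 3A and 3B are given the same day number (3), so the day alone does not set them apart. The deviations of paired libraries correlated at -0.89 (1A), -0.0904 (2B), -0.117 (3A) and 0.131 (3B). The fit has no block, and the fit with the code as a block is given where it changed a call. Columns were also checked for linear dependence: 5 exact relations (singular values under 1e-06 of the largest) left 15 of 20 dimensions. Removing 5 covariates while keeping genotype means would leave such relations, and whether this was done is not given in the sources used here. Alternatives were planned, except GC adjustment (lowess, span 0.3), chromosome centring, all 20 libraries singly and the linear relations as covariates, which were chosen after seeing the data. R595H/+ libraries were left out of the fit because they take no part in the difference.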

Additional observations from a re-analysis of the deposited data

Results flagged for a closer look

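Within the groups of 4 libraries, 142 sets of values of named genes were checked for a library far from the other 3, and 13 had one (by Dixon's ratio of gap to range, at its 95% critical value). Chance gives such a library in about 1 in 20 groups.

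In Trim71-cond the libraries that stood apart were 1A for Fam208b (8.94), Xrn1 (8.48) and Spred1 (7.09), each above the others. In the same group 2B stood low for Slc4a2 (4.11), 3A for Fut9 (7.84) and 3B for Hvcn1 (4.11) and Arid3b (5.07). In Trim71-KO, 1A stood high for Maged1 (7.45), while 2B stood low for Peg3 (7.73), Ccne1 (6.21) and Smg5 (7.27), 3A for Lig1 (8.08) and 3B for Sema5a (5.45). The next values in those groups were 8.75 for Fam208b, 8.34 for Xrn1, 6.93 for Spred1, 7.31 for Maged1, 8.09 for Peg3 and 5.84 for Sema5a. Without the library that stood apart, Fam208b, Xrn1, Maged1, Sema5a, Slc4a2, Hvcn1, Ccne1, Spred1 and Fut9 kept their calls for the difference. The Spred1 call was lost with the replicate block (adjusted p from limma 0.0679) and with the relations (0.0769). Leave-outs kept it in 4 of 14 cases. The Fut9 call was lost with the relations (0.0547) and kept in 12 of 14 leave-outs. Peg3 (adjusted p from limma 0.0592) and Smg5 (0.0678) lost theirs without Trim71-KO 2B, and Lig1 and Arid3b had not been called.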

How the results depend on the processing

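The count of genes called for the difference moved from 203 to 89 with the replicate block (43 higher, 46 lower), in which libraries of a code are paired. It was 91 with the 5/2 libraries only, 95 with the clone as a random effect, 111 without trend and robust, 122 with equal library totals (86 higher, 36 lower), and 56 with a difference of at least 1.5-fold. Among alternatives added after seeing the data, GC adjustment gave 151 (62 higher, 89 lower), GC adjustment with the block 66, all 20 libraries singly 412, and all 20 with the linear relations as covariates 36. Leaving out 1 library or clone gave 56 (without WT C7) to 229 (without R595H/R595H C20). Counts fell by more than 1.5 times also without R595H/R595H C14 (61), Trim71-cond 2B (72) and 3A (101), and Trim71-KO 2B (80) and 3A (106).

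Deletion calls were 695 with the relations, 60 at 1.5-fold, and 1231 to 2058 over leave-outs. R595H/R595H calls were 488 with the block, 354 in a separate fit, 427 with the 5/2 libraries, 499 with equal totals (175 higher, 324 lower), 440 with the Y-linked covariate, 1345 with all 20 libraries singly, 388 with the relations and 33 at 1.5-fold. Over leave-outs they ran from 244 (without C14) to 780, with 345 without C7, 448 without C5 and 494 without C24. The Trim71 difference kept its direction and call in all alternatives, -2.15 to -2.03. Over the 56 other named genes called for the difference, 1364 of 1725 values kept direction and call, 360 lost the call and 1 reversed: mt-Co1 turned to -0.53 under quantile normalization, where its deletion effect became 0. The causes were not tested, apart from the fewer samples of leave-outs. Of 57 named calls 31 held in every leave-out. Equal totals shifted the median difference by 0.0411. Depth is unknown, so what it limits cannot be stated.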
